A study of Mus musculus with 6 samples.

Results

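Connexins and pannexins are membrane proteins that form channels, and 9 of their genes were followed here in ribosome-bound mRNA of mouse brain astrocytes: Gja1, Gjb6, Gjb2, Gjb1, Gjc3, Gjd2, Gjc1, Panx1 and Panx2. They were chosen by symbol from the 23955 genes in the files, and all 9 were found. RNA was measured in 3 libraries from the diencephalon, with the zone around the third ventricle left out. The other 3 libraries came from grey matter of the cortex cleared of meninges and white matter. All libraries came from C57BL/6 mice aged 3 months, of both sexes, with the genotype Slc1a3 +/- GFP+ Rpl22HA fl/fl, given tamoxifen at 9 weeks, and each library pooled 3 mice. P-values therefore measure the spread between pools. In every animal, tamoxifen activated a Cre recombinase made from the locus of Slc1a3, the glutamate transporter GLAST, so the haemagglutinin tag on the ribosomal protein Rpl22 marked cells that had used that locus. One Slc1a3 allele was taken up by the recombinase, and a GFP reporter was present in both regions. Libraries of untagged animals or unpurified tissue were not analysed here.

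Connexins assemble into hemichannels, and hemichannels of neighbouring cells dock to form gap junctions through which ions and small metabolites pass. Astrocytes are coupled into networks by connexins encoded by Gja1 and Gjb6, and networks of this kind are known for spreading potassium, glucose metabolites and calcium signals. Oligodendrocytes and neurons use other connexins. Pannexins also form channels, and that of Panx1 releases ATP to the outside of the cell.

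Libraries held 1733145 to 2334237 expected counts. A gene with no count could still have reached 1.31 to 1.86 CPM, the value of 3 counts in a library. CPM is the count per TMM-scaled library size. This floor covers counting error only. Cortical grey matter replicate 3 stood apart: its chi-square over degrees of freedom was 7.39 and 6.31 against the other cortical libraries, which gave 2.70 against each other. All 20 astrocyte markers were detected, and their sum was 24800 to 29200 CPM in diencephalon and 32900 to 40900 CPM in cortical grey matter. Of these markers 8 fell in diencephalon, 3 rose and 9 did not pass, with a median log2 difference of -0.05. Slc1a2, the glutamate transporter GLT-1, was the largest part of the sum, which was 1.44-fold lower in diencephalon with it and 1.26-fold lower without it. Markers of other cell types were present in every library, and no gene of the 12 marker lists was at 0 throughout. In bulk RNA, fewer cells of a type and less RNA per cell cannot be told apart. Of 10568 genes tested between regions, 3133 passed an adjusted p of 0.05 in edgeR's quasi-likelihood test, or 29.6%, with 14.9% higher and 14.8% lower in diencephalon. Of the calls, 50.2% were higher in diencephalon, against 68.9% on the log2(TPM + 1) scale and 90.1% with libraries scaled to their astrocyte markers. These settings moved the median log2 difference of all genes from 0.01 to 0.22 and 0.54. Scaling to the astrocyte markers without Slc1a2, tried after the values were seen, gave 80.8% and a median of 0.34.

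The main astrocyte connexins did not pass the test between regions, while the third, Gjb2, was more than 4-fold lower in diencephalon. Among the other genes, the oligodendrocyte connexin Gjc3 and the neuronal connexin Gjd2 were higher there, and Panx2 did not pass. Enough reads for the test were found for 6 of the 9 genes. Of these, 2 rose in diencephalon, 1 fell and 3 did not pass, where 14.9% of all genes tested rose and 14.8% fell. The CPM ranges of the regions did not overlap for Gjb2, Gjd2 and Panx2, or 3 of the 6, against 42.6% of all genes tested. Their median log2 difference was 0.18, against 0.01 over all genes tested. Gjb1, Gjc1 and Panx1 had too few reads to be tested. Gjd2 passed the filter through its diencephalic counts alone, so it could only come out higher there, and the counts of calls are given as a description.

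**Figure D1:**
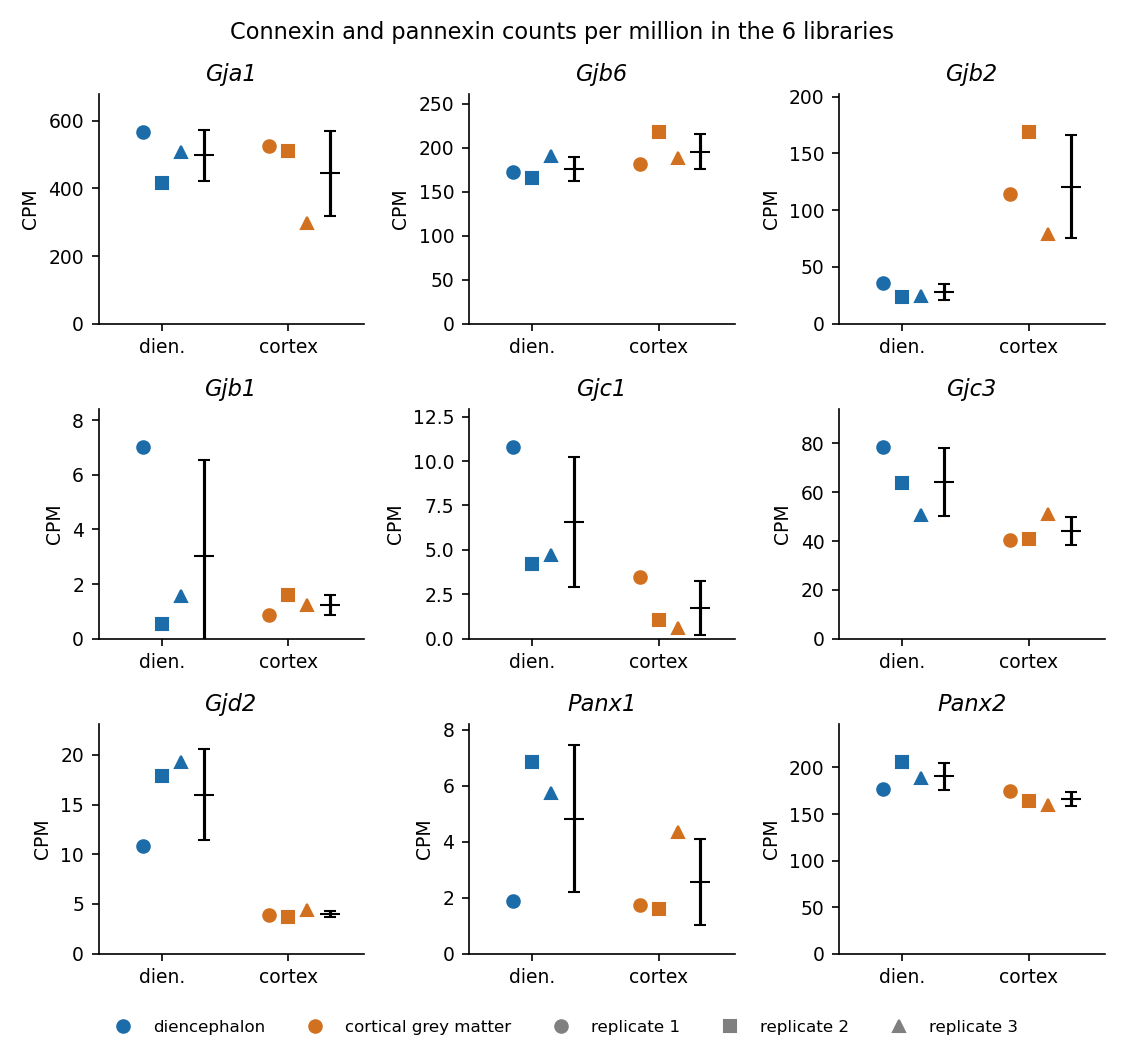
CPM of each of the 9 genes (vertical axes, linear and starting at 0, a separate scale for each gene) in 3 diencephalic (blue) and 3 cortical (orange) libraries; symbols mark the replicate number, and black bars show the mean and SD of each region, with the diencephalic bar of Gjb1 ending at the axis. Gjb2 and Gjd2 separate the regions, Gja1 and Gjb6 overlap, and cortical replicate 3 is lowest for Gja1 at 298 CPM.

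Gja1, which encodes connexin-43, the major gap junction protein of astrocytes, had the highest level of the 9 genes. In TPM, a unit that divides by gene length and so allows genes to be compared, it stood at 694, 523 and 639 in diencephalon replicates 1 to 3. Cortical grey matter replicates 1 to 3 had 575, 539 and 325. In every library at least 98.2% of all genes in the files had a lower TPM than Gja1. The lowest value was that of cortical replicate 3, and the ranges of the regions overlapped. On the CPM scale Gja1 was at 497 ± 75.6 in diencephalon and 444 ± 127 in cortex (SD, n = 3 each). The log2 difference was 0.16 ± 0.19 (SE), with a 95% interval of -0.24 to 0.56 (edgeR adjusted p = 0.561). Without cortical replicate 3 it turned to -0.06 (edgeR adjusted p = 0.748). Set against the astrocyte markers of the same library, Gja1 made 1.67% to 2.05% of their summed CPM in diencephalon and 0.905% to 1.28% in cortex. With libraries scaled to those markers Gja1 passed as higher in diencephalon (log2 difference 0.71, edgeR adjusted p = 0.00604), and it lay 0.17 above the median of all genes in that setting. That call was lost when Slc1a2 was left out of the markers (log2 difference 0.51, edgeR adjusted p = 0.0592).

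Gjb6, which encodes connexin-30, the other main connexin of mature grey matter astrocytes, was steady across libraries. Its TPM was 320, 314 and 364 in diencephalon and 302, 349 and 312 in cortical grey matter. The ranges overlapped, and no library stood away from the rest. CPM values were 176 ± 13.5 and 196 ± 19.6 (SD, n = 3 each), a log2 difference of -0.16 ± 0.13 with a 95% interval of -0.42 to 0.11 (edgeR adjusted p = 0.389). On the TPM scale the sign turned, at 0.05, and with libraries scaled to astrocyte markers it was 0.37 (edgeR adjusted p = 0.104). Relative to the median of all genes in those settings, Gjb6 lay at -0.17 in both.

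The balance of these connexins within a library was also compared. Gjb6 stood at 0.462, 0.600 and 0.570 of the Gja1 TPM in the diencephalic libraries and at 0.525, 0.647 and 0.960 in the cortical ones. The highest ratio was that of cortical replicate 3, where Gja1 was lowest, and the regions overlapped. The difference of mean log2 ratios was -0.35 (two-sided exact permutation p = 0.4, where 3 against 3 libraries cannot go below 0.1). Without cortical replicate 3 it was -0.11.

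Gjb2 encodes connexin-26, which is found in astrocytes and also in meningeal cells. It had 76, 44 and 47 counts in the diencephalic libraries and 262, 317 and 127 in the cortical ones. As TPM these were 57.3, 38.3 and 40.6 against 165, 235 and 113. Every cortical library was above every diencephalic one, with cortical replicate 2 highest. On the CPM scale Gjb2 was 4.33-fold lower in diencephalon, at 27.8 ± 6.77 against 121 ± 45.3 (SD, n = 3 each). The log2 difference was -2.11 ± 0.26 (SE), with a 95% interval of -2.68 to -1.55 (edgeR adjusted p = 3.41e-05). All 16 alternative settings kept the call, at -2.34 to -1.58.

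Gjb2 was also read against the other astrocyte connexins of the same library. It stood at 0.179, 0.122 and 0.112 of the Gjb6 TPM in diencephalon and at 0.546, 0.674 and 0.363 in cortex, a 3.80-fold difference of the mean ratios. Against Gja1 the ratio was 0.0636 to 0.0826 in diencephalon and 0.286 to 0.436 in cortex. Neither ratio overlapped between regions. Both ratios were chosen after the values were seen, with Gjb2 known to separate the regions and Gja1 and Gjb6 known to overlap. They are therefore a description, and no test is read from them.

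Meningeal and fibroblast markers moved with Gjb2. Their summed CPM was 443 to 722 in diencephalon and 3600 to 6660 in cortical grey matter, with 11 of 12 genes lower in diencephalon by the test and none at 0. Ptgds, the prostaglandin D synthase gene, made most of that sum. Without Ptgds the sums were 209, 147 and 154 CPM in diencephalon and 610, 884 and 576 CPM in cortex, 4.06-fold apart. Gjb2 amounted to 17.0%, 15.8% and 16.0% of this sum in the diencephalic libraries and to 18.7%, 19.1% and 13.7% in the cortical ones, so the ranges overlapped. Against the sum with Ptgds, Gjb2 was at 4.30% to 5.23% in diencephalon and 2.19% to 2.54% in cortex. Against astrocyte markers it was at 0.0931% to 0.122% and 0.240% to 0.421%. Of 4 endothelial markers tested 2 fell in diencephalon, and of 3 mural markers 2 fell, while the others did not pass. The endothelial sum was 1.97-fold lower in diencephalon and 1.42-fold lower without Cdh5, and the mural sum was 2.72-fold lower and 1.73-fold lower without Vtn. The part of these cells in the Gjb2 difference was not tested.

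**Figure D2:**
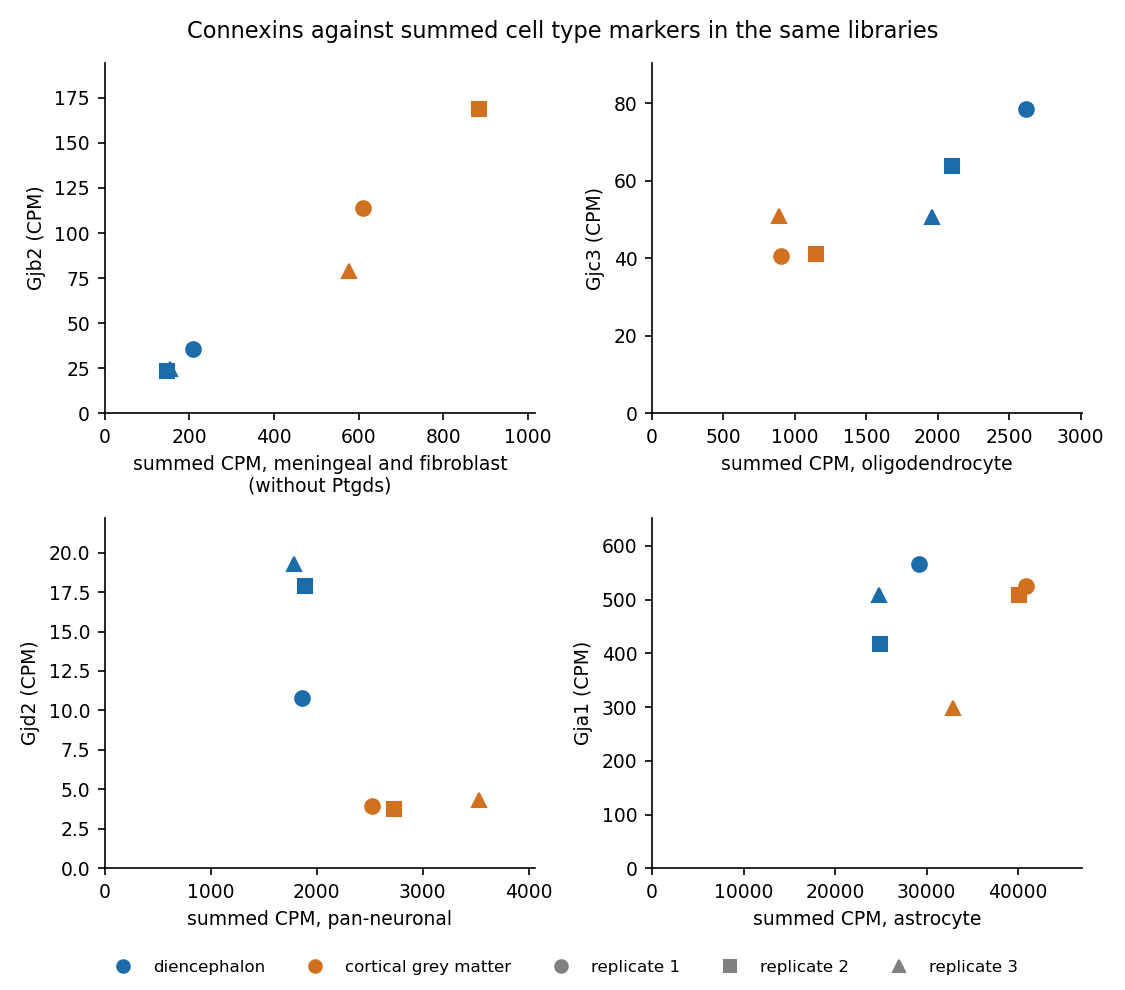
CPM of Gjb2, Gjc3, Gjd2 and Gja1 (vertical axes) against the summed CPM of a cell type marker list in the same library (horizontal axes, all linear from 0), with 3 diencephalic (blue) and 3 cortical (orange) libraries per panel. Gjb2 is at 13.7% to 19.1% of the meningeal and fibroblast sum without Ptgds in all 6 libraries. With Ptgds, not drawn, it is at 4.30% to 5.23% in diencephalon and 2.19% to 2.54% in cortex. The pan-neuronal sum is carried by Snap25, without which it differs 1.16-fold between regions. Relative to the pan-neuronal sum Gjd2 is higher in diencephalon, and relative to the subcortical neuron sum, not drawn, it is lower there.

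Gjb2 and Gjb6 are neighbours on chromosome 14, both read from the minus strand, with 1 other gene, Gm32912, starting between them in RefSeq's table for GRCm38.p6. The 150 bases before each start are shown because Gjb2 passed the test between regions and its neighbour Gjb6 did not. They come from RefSeq on GRCm38.p6, a later build than the mm9 of the files, at chr14:57104703-57104852 for Gjb2 and chr14:57133612-57133761 for Gjb6. Capitals mark a GC box, GGGCGG on either strand, the motif known for Sp1-type factors.
Gjb2: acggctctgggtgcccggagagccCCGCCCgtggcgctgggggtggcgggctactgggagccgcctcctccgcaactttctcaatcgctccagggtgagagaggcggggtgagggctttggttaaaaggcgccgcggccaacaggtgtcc
Gjb6: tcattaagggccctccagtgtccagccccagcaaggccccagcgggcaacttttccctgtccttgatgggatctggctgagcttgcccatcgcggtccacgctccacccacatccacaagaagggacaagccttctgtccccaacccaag
The Gjb2 window held 1 GC box and the Gjb6 window none, where 28.6% of 32851 RefSeq windows of that length hold one. Their GC contents were 69.3% and 60.7%, against a median of 54.0% over all windows. Neither window held TATAAA, the SOX motif ACAAAG, the SMAD palindrome GTCTAGAC or the NFI palindrome on either strand, which 7.57%, 9.88%, 0.0731% and 0.0244% of windows hold. A match or its lack describes these letters alone.

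Gjc3 encodes connexin-29, a protein of myelinating glia. It had 168, 121 and 97 counts in the diencephalic libraries and 93, 77 and 82 in the cortical ones. These were 78.6, 63.8 and 50.7 CPM against 40.6, 41.0 and 50.9 CPM, so diencephalon replicate 3 and cortical replicate 3 met in the middle. The mean was 64.4 ± 14.0 against 44.2 ± 5.86 CPM (SD, n = 3 each). Gjc3 rose 1.47-fold in diencephalon, with a log2 difference of 0.55 ± 0.19 (SE) and a 95% interval of 0.16 to 0.95 (edgeR adjusted p = 0.0317). The call was lost with DESeq2 (adjusted p = 0.0674), and without diencephalon replicate 1 or 2 or cortical replicate 1 or 2 (edgeR adjusted p = 0.188, 0.0725, 0.116 and 0.106). Over all 16 alternatives the adjusted p ranged from 0.000758 to 0.188.

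Oligodendrocyte markers moved the same way. Their sum was 1960 to 2620 CPM in diencephalon and 892 to 1150 CPM in cortex, with 10 of 12 tested genes higher in diencephalon, none lower and none at 0. Diencephalon replicate 1 had both the highest sum and the highest Gjc3. Within cortex it went the other way, as replicate 3 had the lowest sum, 892 CPM, and the highest Gjc3, 50.9 CPM. Gjc3 made 2.58% to 3.03% of the oligodendrocyte sum in diencephalon and 3.56% to 5.71% in cortex. Of 8 progenitor markers 3 fell in diencephalon and 5 did not pass, with sums of 186 to 203 CPM against 240 to 278 CPM. The part of these cells in the Gjc3 difference was not tested.

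Gjb1, which encodes connexin-32, a gap junction protein of oligodendrocytes and Schwann cells, was close to the limit of detection. Its counts were 15, 1 and 3 in diencephalon and 2, 3 and 2 in cortical grey matter. Of the 19 diencephalic counts 15 came from replicate 1. Oligodendrocyte marker sums in diencephalon replicates 1 to 3 were 2620, 2100 and 1960 CPM, so replicate 2, with 1 count, was not the lowest in them. The part of oligodendrocytes in the Gjb1 counts was not tested. The ratio of summed counts, scaled by library size, was 2.64 (95% exact counting interval 1.06 to 7.43), which leaves out the spread between libraries. Without a count filter the log2 difference was 1.31 (edgeR adjusted p = 0.272), and it was -0.21 when diencephalon replicate 1 was also left out (adjusted p = 0.929).

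The oligodendrocytic connexins were then set against the astrocytic ones. The summed TPM of Gjb1 and Gjc3 was 0.102, 0.0857 and 0.0601 of that of Gja1 and Gjb6 in diencephalon, and 0.0469, 0.0471 and 0.0813 in cortex. The cortical value of replicate 3 fell among the diencephalic ones. The mean log2 ratios differed by 0.52 (two-sided exact permutation p = 0.2).

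Gjd2 encodes connexin-36, the main connexin of electrical synapses between neurons. It had 23, 34 and 37 counts in the diencephalic libraries and 9, 7 and 7 in the cortical ones. These were 10.8, 17.9 and 19.3 CPM against 3.93, 3.73 and 4.35 CPM. The cortical libraries lay close together and each diencephalic library was above them, with replicate 1 the lowest. Mean levels were 16.0 ± 4.60 CPM in diencephalon and 4.00 ± 0.317 CPM in cortex (SD, n = 3 each). The log2 difference was 1.98 ± 0.38 (SE, 95% interval 1.2 to 2.76, edgeR adjusted p = 0.000321). Gjd2 passed the count filter through its diencephalic libraries alone, so it could only come out higher there. The call is therefore a description, and no fold is given. It held in all 15 alternatives that could give a value, at 1.83 to 2.53, but those that kept the count filter share this limit.

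Neuronal markers went in both directions. Of 7 pan-neuronal markers 2 rose in diencephalon, 2 fell and 3 did not pass. Their sum was 1790 to 1890 CPM in diencephalon against 2520 to 3530 CPM, 1.58-fold lower, and 1.16-fold lower without Snap25. The sum of cortical excitatory markers was 929 to 1320 CPM against 5310 to 6290 CPM. Subcortical neuron markers were at 472 to 553 CPM in diencephalon and 36.2 to 48.4 CPM in cortex, 12.1-fold apart. Of 4 inhibitory neuron markers tested 2 rose in diencephalon, 1 fell and 1 did not pass. Their sum was 213 to 250 CPM against 158 to 216 CPM, and its ratio of diencephalon to cortex turned from 1.23 to 0.574 without Gad2. Gjd2 was at 0.578% to 1.08% of the pan-neuronal sum in diencephalon and 0.123% to 0.156% in cortex. Against inhibitory neuron markers it was at 4.88% to 9.07% and 2.02% to 2.49%. Against subcortical neuron markers the order turned, with 2.28% to 3.5% in diencephalon and 8.82% to 10.3% in cortex. None of these neuronal markers was at 0 in all libraries, and their part in the Gjd2 difference was not tested.

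Gjc1, which encodes connexin-45, a protein of neurons and of vascular smooth muscle, had 23, 8 and 9 counts in diencephalon and 8, 2 and 1 in cortex. Diencephalon replicate 1 was again the highest, and its other libraries were near cortical replicate 1, which was at 3.49 CPM against 4.22 and 4.70 CPM. The ratio of summed counts was 3.53 (95% exact counting interval 1.78 to 7.64), which again leaves out the spread between libraries. Without a count filter the log2 difference was 1.79 (edgeR adjusted p = 0.0135). It was 1.24 when diencephalon replicate 1 was also left out (adjusted p = 0.276), and it did not pass without cortical replicate 2 or 3 (adjusted p = 0.0786 and 0.0618). On the log2(TPM + 1) scale, with a mean TPM of at least 1, it was 1.91 (limma adjusted p = 0.038).

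The pannexins differed from each other in level by more than an order of magnitude. Panx2, a pannexin known from neurons and glia, was at 197, 234 and 215 TPM in diencephalon and 174, 157 and 158 TPM in cortical grey matter. On the CPM scale its libraries barely separated, with 177, 206 and 189 against 175, 164 and 160. Its log2 difference was 0.19 ± 0.12 (SE, 95% interval -0.06 to 0.45) and did not pass (edgeR adjusted p = 0.257). On the log2(TPM + 1) scale it passed at 0.40 (limma adjusted p = 0.0415), which was 0.18 above the median of all genes there. It also passed with libraries scaled to astrocyte markers, at 0.73 (edgeR adjusted p = 0.00343), or 0.19 above that median, and at 0.53 when Slc1a2 was left out of them (edgeR adjusted p = 0.0428).

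Panx1, the widely expressed ATP release channel, had 4, 13 and 11 counts in diencephalon and 4, 3 and 7 in cortex. The lowest diencephalic library lay among the cortical ones, so the regions overlapped. The ratio of summed counts was 1.94 (95% exact counting interval 0.990 to 4.00), which leaves out the spread between libraries. Without a count filter the log2 difference was 0.93 (edgeR adjusted p = 0.311). A regional difference of Panx1 was not detectable at this depth.

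**Figure D3:**
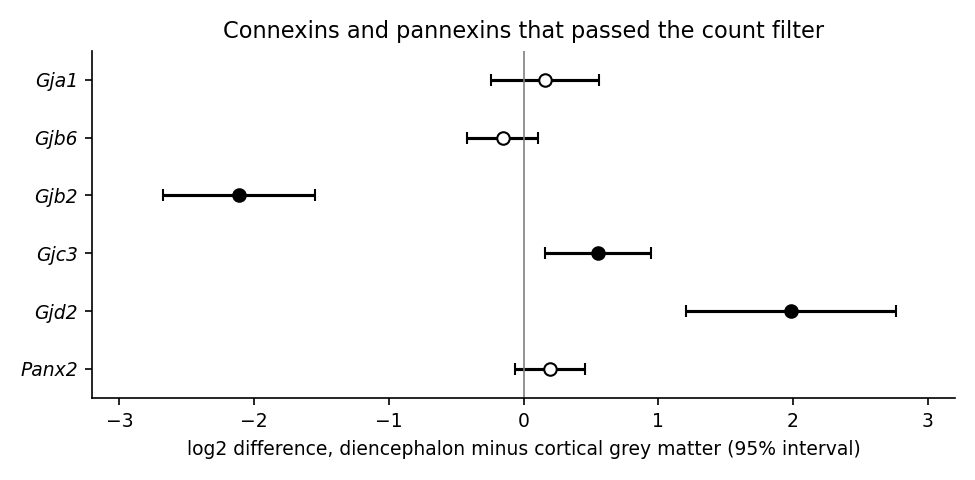
log2 difference of CPM, diencephalon minus cortical grey matter (horizontal axis), for the 6 genes that passed the count filter; bars are 95% intervals of edgeR's fit over 3 libraries per region, and filled points passed an adjusted p of 0.05. Gjb2 lies at -2.11, Gjc3 at 0.55 and Gjd2 at 1.98, and the intervals of Gja1, Gjb6 and Panx2 include 0. Gjd2 passed the count filter through its diencephalic libraries alone.

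The order of levels was set by length-scaled TPM. In diencephalon Gja1 (619 ± 87.5) was followed by Gjb6 (333 ± 27.4), Panx2 (215 ± 18.5), Gjc3 (70.2 ± 14.3), Gjb2 (45.4 ± 10.4) and Gjd2 (21.7 ± 6.47, all SD, n = 3). Gjc3 and Gjb2 overlapped in range, although Gjc3 was above Gjb2 in each of the 3 libraries. Gjc1, Panx1 and Gjb1 came last, with means of 13.2, 9.34 and 8.34, and did not separate from one another. Gjd2 and Gjc1 overlapped as well. In cortical grey matter the order was Gja1 (480 ± 135), Gjb6 (321 ± 24.6), Gjb2 (171 ± 61.1), Panx2 (163 ± 9.14) and Gjc3 (41.9 ± 5.94). Gjb2 thus had rank 3 in cortex and rank 5 in diencephalon. The ranges of Gja1 and Gjb6 overlapped in cortex because of replicate 3, yet Gja1 was higher in all 3 libraries. Gjb2 and Panx2 did not separate in cortex, and the last 4 genes lay at means of 2.96 to 4.70 with overlapping neighbours.

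The astrocytic share of the summed TPM of the 9 genes was compared between regions. Gja1, Gjb6 and Gjb2 together made 76.0%, 71.3% and 76.4% in diencephalon and 82.0%, 84.4% and 77.0% in cortical grey matter. The regions did not overlap, although cortical replicate 3 and diencephalon replicate 3 were close. The mean difference, diencephalon minus cortex, was -6.58 percentage points (two-sided exact permutation p = 0.1, the smallest possible). This direction rested on Gjb2, which made 2.97% to 4.06% of the summed TPM in diencephalon and 11.6% to 17.7% in cortex. Gjb2 is also found in meningeal cells, and their part in its level was not tested. With Gja1 and Gjb6 alone the share was 4.12 percentage points higher in diencephalon (two-sided exact permutation p = 0.2). Panx2 took the largest share outside the astrocytic genes, with 13.9% to 19.0% in diencephalon and 11.8% to 16.3% in cortex.

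**Figure D4:**
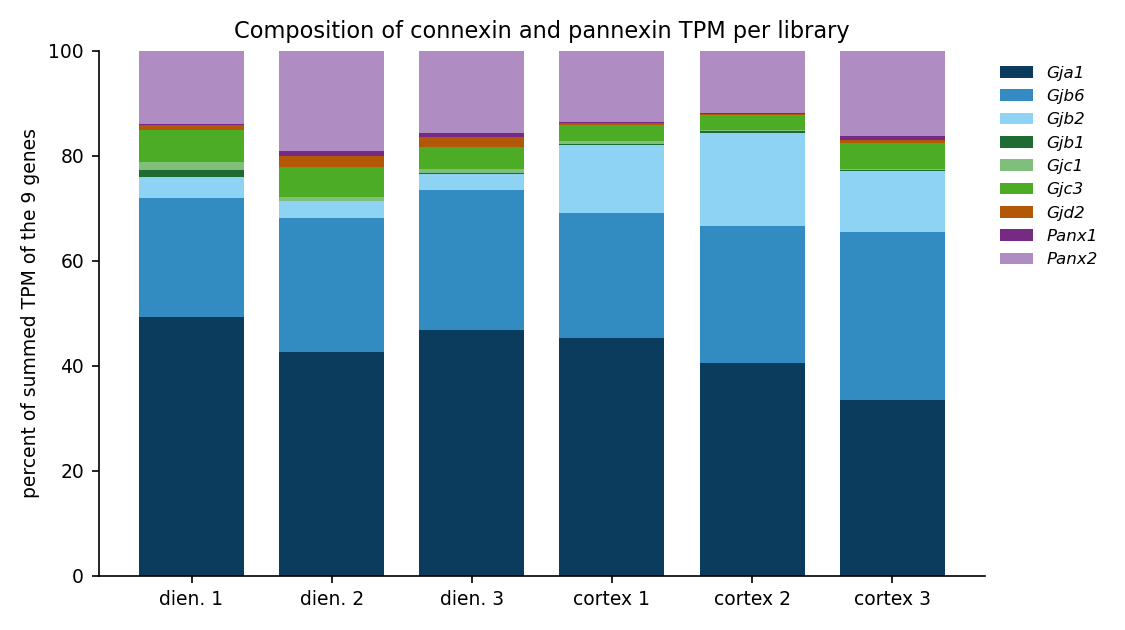
Share of each gene in the summed TPM of the 9 genes (vertical axis, percent, from 0) in each of the 6 libraries, stacked in the order Gja1 to Panx2 from the bottom. Gjb2 is the band that differs most by eye between regions, at 2.97% to 4.06% in the diencephalic and 11.6% to 17.7% in the cortical libraries.

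Of 14 further connexin and pannexin genes in the files, none passed the count filter. Together they had 31 counts over 6 libraries, against 11631 for the 9 genes. No count was seen for 9 of them. Gja4 and Gja5, connexins of vascular cells named after their values were seen, had 7 counts in diencephalon against 9 in cortex and 5 against 0.

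Genes whose products bind or regulate connexin and pannexin channels, or share their functions in astrocytes, were read from the same fit. Of 21 listed, 20 were tested, and 7 fell, 2 rose and 11 did not pass, where 14.8% of all genes tested fell and 14.9% rose. The partners had a median log2 difference of -0.28 against 0.01 over all genes. Dbn1, which encodes the actin-binding protein drebrin, a partner of connexin-43, was at 29.8 ± 3.78 CPM in diencephalon and 405 ± 84.0 in cortex, 13.5-fold lower (edgeR adjusted p = 1.42e-12). Nov, a secreted CCN protein, had 5, 1 and 4 counts in diencephalon and 70, 41 and 54 in cortex (edgeR adjusted p = 9.19e-08). It passed the count filter through its cortical libraries alone, so it could only come out lower in diencephalon, and no fold is given. Ezr, the membrane-actin linker ezrin, fell by 1.92 on the log2 scale (edgeR adjusted p = 8.14e-10). Tjp1, which encodes ZO-1, the scaffold that anchors connexin-43 plaques, fell by 0.70 (edgeR adjusted p = 0.000491). With libraries scaled to astrocyte markers Tjp1 did not pass (log2 difference -0.20, edgeR adjusted p = 0.437), while Dbn1 and Ezr passed in all 16 alternatives. The genes that rose were Kcnj10, the potassium channel of astrocytes (log2 difference 0.88, edgeR adjusted p = 4.30e-05), and Lrrc8a, a subunit of volume-regulated anion channels (0.62, edgeR adjusted p = 0.000423). Both passed in all 16 alternatives. Aqp4, the water channel, and P2rx7, an ATP receptor that works with Panx1, did not pass (edgeR adjusted p = 0.766 and 0.379).

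Over the 6 libraries and 3993 genes with at least 50 CPM, the genes most like Gja1 in log2 CPM were Dhcr7, a cholesterol synthesis enzyme, with Pearson r = 0.987, the transcription factor Rfx4 (0.985) and the kinase Ttbk1 (0.984). All were lowest in cortical replicate 3, as Gja1 was. For Gjb6 they were 9330159F19Rik (0.995), the splicing regulator Mbnl2 (0.940) and the nuclear pore gene Tpr (0.928). Among 20 astrocyte markers r ran from -0.25 to 0.98 for Gja1, highest for Ntsr2, and from -0.70 to 0.71 for Gjb6. These values describe 6 points that share library and depth, and no test was made.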

How the data were processed

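Ribosome-bound mRNA was sequenced in 6 libraries on an Ion Proton after amplification with the Ovation system, per the labels' protocols, with 3 libraries per region. The authors used RSEM and mm9, per the submitters' processing notes; for the aligner, the strand and tool versions, the entry is: not given in the sources used here. The deposited expected counts are RSEM estimates, of which 3.64% to 3.99% per library were not whole; all 54 values of the 9 genes were whole. The deposited TPM is scaled by effective length and library total. No coordinates of the files' build were used.

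Expected counts were rounded, filtered with filterByExpr (minimum count 10, leaving 10568 genes), TMM-scaled and tested by quasi-likelihood F-tests in edgeR 4.0.16 under R 4.3.3 (with limma 3.58.1 and DESeq2 1.42.0 for alternatives), region being the only term, with Benjamini-Hochberg adjustment over all genes tested. CPM uses TMM library sizes, and SE comes from the F statistic. Ratios of TPM were compared by exact permutation over libraries. Replicates were separate pools of mice. No label says whether same-numbered libraries shared mice. The test was checked on simulated counts for diencephalon against cortical grey matter on 10330 genes: 27.3%, 83.3% and 98.4% of genes changed 1.5-fold, 2-fold and 4-fold were recovered. The genes and lists were chosen with earlier results of these data known. Named genes were the 9 genes, other connexins past the filter, up to 4 called partners per direction with the smallest adjusted p, and the 3 genes most like Gja1 and Gjb6; any other gene was picked with its values in view. The alternatives tried were RLE scaling, scaling to summed astrocyte markers, a minimum count of 30 or no filter, DESeq2, limma voom, a replicate block, limma on log2(TPM + 1) and log2(TPM + 0.1), and leaving out each library. Astrocyte marker scaling without Slc1a2, the Gjb2 ratios and the fits without a filter that also left out a library were added after the data were seen. The values of 1 further connexin gene are not reported here.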

Additional observations from a re-analysis of the deposited data

How the results depend on the processing

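With libraries scaled to summed astrocyte markers, 5026 of 10568 genes passed between regions against 3133. Of the 9 genes 6 were tested there, and 5 passed against 3. On each TPM scale all 9 were tested and 5 passed. There, 3042 of 14296 genes passed on log2(TPM + 1) with a mean TPM of at least 1. Leaving out single libraries gave 2331 to 3373 genes in all and 2 or 3 of the 9 genes, of which 6 or 7 were tested. The log2 difference of Gja1 ran from -0.06 to 0.29 without single libraries, turning sign without cortical grey matter replicate 3. That of Gjb6 turned with astrocyte marker scaling (0.37, or 0.17 without Slc1a2) and on the TPM scales (0.05 in each). The astrocytic share changed sign when Gjb2 was left out of it, at 4.12 percentage points; without single libraries it ran from -8.64 to -4.96. The difference in the log2 ratio of Gjb6 to Gja1 ran from -0.54 to -0.11, and that of oligodendrocyte to astrocyte connexins from 0.35 to 0.78. The causes were not tested. Same-numbered libraries of the regions did not deviate together (correlations of 0.06, -0.10 and -0.01). With a replicate block 3037 genes passed, with 3 of the 6 tested among the 9 genes, and no call of these changed. For the share and the ratios the block paired same-numbered libraries, which leaves the mean differences at -6.58, -0.35 and 0.52 by construction. Their p-values were 0.25, 0.25 and 0.5 (two-sided exact sign-flip test, where 3 pairs cannot go below 0.25). Gjd2 could not be tested at a minimum count of 30. Depth limits Gjb1, Gjc1 and Panx1, which had at most 23 counts in a library.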
